A study of Mus musculus with 16 samples.

Results

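H3K4me3, the trimethylation of lysine 4 on histone H3, was mapped by CUT&Tag in macrophages sorted from injured mouse calf muscle, in 2 libraries made 2 days after injury (2 dpi) and 2 made 4 days after it (4 dpi). These 4 libraries are part of a series of 16 that also covers H3K27ac, H3K18la and H3K27me3. Their peaks were merged wherever they shared at least 1 bp, which gave 19426 H3K4me3 regions on chromosomes 1 to 19, X and Y of the build GRCm39, and 13298 of these (68.5%) held a peak in all 4 libraries and could be compared between time points. All mice were C57BL6J wild type males, 8 to 12 weeks old, whose hind limb had been made ischemic by ligating and removing the femoral artery with its branches. The series' description adds an intravenous antibody against CD45 given shortly before death, and living cells positive for CD45, CD11b, F4/80 and CD64 were sorted. By their labels the groups differ in the day of collection alone. No uninjured muscle and no library without a mark-specific antibody was analysed here. CUT&Tag tethers a transposase to the antibody, so that DNA next to the mark is cut, tagged and sequenced.

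H3K4me3 is written mainly by the SET1 and MLL families of methyltransferases and sits as a sharp block around the start sites of genes that are transcribed or poised, most often at CpG islands. It is bound by factors that recruit RNA polymerase II and chromatin remodellers, and unusually wide blocks are found at genes that define a cell type. In macrophages much of the mark at promoters is already in place before a stimulus, while inducible genes and enhancers gain or lose acetylation more readily. Monocytes that enter a damaged muscle first become inflammatory macrophages that clear debris and then turn into restorative macrophages that aid muscle stem cells and vessels. The comparison asks where the promoter mark was redistributed during that turn.

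The deposited lists hold, for each peak called by SEACR, its position, the summed coverage over it (total signal), the highest coverage in it (maximum signal) and the place of that maximum. On the chromosomes used, the lists held 16962 and 16612 peaks at 2 dpi and 18413 and 16446 at 4 dpi. The median peak was 1796 and 2033 bp wide at 2 dpi, 2558 bp in replicate 1 and 2030 bp in replicate 2 at 4 dpi. Replicate 1 of 4 dpi stood apart, since its peaks covered 53.6 Mb against 35.7 to 39.2 Mb in the other libraries. Over time points, the number of peaks differed by 642, the median width by 380 bp and the covered length by 8.45 Mb, with exact permutation p = 1, 0.667 and 0.667 (2-sided, 2 libraries against 2, where the smallest possible p is 0.33). Without 4 dpi replicate 1 the difference in covered length was 0.678 Mb and that in median width 116 bp, and that in the number of peaks, 4 minus 2 dpi, was -341. Sequencing depth is unknown, and the coverage values were not scaled between libraries, so all strengths below are ranks within a library. The tissue and sort could not be checked against marker genes, because the regions carry no gene names in the files and the annotation at hand is of another build.

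The 4 libraries ordered the shared regions alike, and those of one time point more so. Across the 13298 regions the Spearman correlation of total signal was 0.947 between the replicates of 2 dpi and 0.967 between those of 4 dpi, against 0.88 to 0.901 across time points. For maximum signal the values were 0.907 and 0.919 within, and 0.839 to 0.873 across. These are descriptions over regions that share libraries. The place of the maximum hardly moved: the median distance between the maxima of a region was 40 and 46 bp within a time point and 45.5 to 53.5 bp across. The crest of the mark thus lay at nearly the same place on both days.

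Total signal was compared by turning ranks into normal scores (a score of 0 is the median region and 1 lies 1 standard deviation above it) and testing the difference, called the shift, with limma at an adjusted p under 0.05. By this test 1035 regions rose from 2 to 4 dpi (7.78% of those tested) and 1073 fell (8.07%), while 11190 did not pass. A typical change was moderate, with a median shift of 0.59 among the rises and -0.63 among the falls. The calls rest on borrowing variance across regions by signal level: with limma's plain variance none passed, the smallest adjusted p being 0.0577, although 3632 regions had an unadjusted p under 0.05, against 4354 in the reported fit. They also rest on both 4 dpi libraries, as 312 regions rose and 571 fell without 4 dpi replicate 1, and 239 and 474 without 4 dpi replicate 2. When log2 of the total signal was used in place of ranks, 938 rose and 1882 fell, so the even split of rises and falls belongs to the rank scale. The labels do not say how many mice a library holds, and p-values measure only the spread between the 2 libraries of a group.

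The 12 rises with the largest shift that also rose in maximum signal started among the weakest shared regions and reached the middle of the list. Their total signal lay between percentiles 0.256 and 17 in the 2 dpi libraries and between 22.9 and 64.3 in the 4 dpi libraries. The time points did not overlap at any of the 12, which the choice by largest shift all but fixes: over all tested regions, 30.5% had higher percentiles in both 4 dpi libraries than in both of 2 dpi and 29.8% had lower ones. Regions with a larger shift in total signal, up to 2.76, are not among the 12, because they did not pass in maximum signal. The first, chr7:79943295-79945936, stood at percentiles 3.78 and 0.384 at 2 dpi and 41.3 and 28.7 at 4 dpi. Its called width was 0.776 and 0.835 kb at 2 dpi and 2.64 and 1.78 kb at 4 dpi, and its shift was 1.83 ± 0.37 (SE, n = 2 against 2, adjusted p = 0.00798). Both libraries of 4 dpi thus lay far above both of 2 dpi in strength and in width.

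The second, chr9:22066712-22069384, rose from percentiles 3.95 and 4.42 to 45.1 and 55.7 (shift 1.74 ± 0.25, limma adjusted p = 0.00155). It was followed by chr19:6116490-6118593, which rose from 1.01 and 5.74 to 37.3 and 36.5 (1.62 ± 0.33). Of all 12, chr9:113621208-113623414 showed the largest change in height, its maximum signal going from percentiles 2.94 and 2.03 to 42.2 and 68.3 (shift of maximum signal 2.11 ± 0.34, limma adjusted p = 0.00625), while its called width changed little, from 1.6 and 1.53 kb to 2.21 and 1.75 kb. This region grew in height more than in breadth. The region chr4:43452344-43455458 was the only one of the 12 that also carried H3K27me3 in all 4 libraries of that mark. There H3K4me3 rose from percentiles 4.46 and 8.73 to 48.8 and 35.1 (shift 1.32 ± 0.26). The shift of H3K27me3 was -0.48, which did not pass its limma test (adjusted p = 0.422). Over all rises 7.92% carried H3K27me3 in this way, and over all tested regions 10.6%. The other 7 rises lay at chr8:71045951-71048260, chr10:80689111-80691342, chr8:70685730-70688940, chr1:75155480-75157848, chr7:99875555-99878594, chr11:96678775-96682132 and chr17:26933671-26936365, with shifts of 1.26 to 1.56. At chr7:99875555-99878594 the replicates lay close together, with percentiles of 16 and 16.1 at 2 dpi and 59 and 64.3 at 4 dpi (1.29 ± 0.18, adjusted p = 0.0012).

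The 12 falls chosen the same way covered a wider range of starting levels. Their total signal lay between percentiles 17.6 and 94.1 at 2 dpi and between 0.0451 and 45.6 at 4 dpi. The most extreme, chr3:68463565-68465419, went from percentiles 27.5 and 20.5 to 0.128 and 0.0451 (shift -2.47 ± 0.49, limma adjusted p = 0.00678) and so became one of the weakest shared regions at 4 dpi, while its width stayed at 1.28 and 1.45 kb against 1.73 and 1.48 kb. A mid-strength block, chr2:140635264-140637918, went from 58.5 and 56.8 to 5.2 and 1.61 (-2.08 ± 0.26, adjusted p = 0.000749). In maximum signal chr9:100967077-100968970 fell furthest, from percentiles 55.6 and 63.9 to 2.99 and 2.03 (-2.21 ± 0.32, adjusted p = 0.00332). All 3 fell in maximum signal too, as the choice required, and the first and the third kept most of their breadth.

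Other falls of this group were wide blocks, called much narrower in one of the 4 dpi libraries. The region chr12:95710297-95716851 was called over 5.02 and 6.55 kb at 2 dpi and over 3.59 and 1.43 kb at 4 dpi, and its total signal went from percentiles 71.3 and 82.6 to 23.8 and 13.7 (shift -1.65 ± 0.18, limma adjusted p = 0.000297). At chr2:160049037-160055250 the widths were 4.11 and 6.16 kb against 4.87 and 1.94 kb and the percentiles 76.5 and 88 against 28.7 and 18.4 (-1.68 ± 0.18, adjusted p = 0.000259). The strongest starting point was that of chr13:120057172-120064660, at percentiles 81.4 and 94.1 against 45.6 and 15.1. In each of these 3 wide blocks the narrower call at 4 dpi was that of replicate 2, and the difference in width did not pass its test. The remaining 6 falls were chr13:24277538-24280871, chr16:52287574-52291894, chr4:86594046-86595841, chr14:120016249-120018318, chr10:112671123-112674382 and chr4:83190409-83193243, with shifts of -1.61 to -2.22. Nearly all of these regions had low maximum signal in some of the libraries. With the weakest 25% of each list by maximum signal left out, 11 of the 12 rises and all 12 falls were no longer called in all 4 libraries. They could then not be compared.

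**Figure D1:**
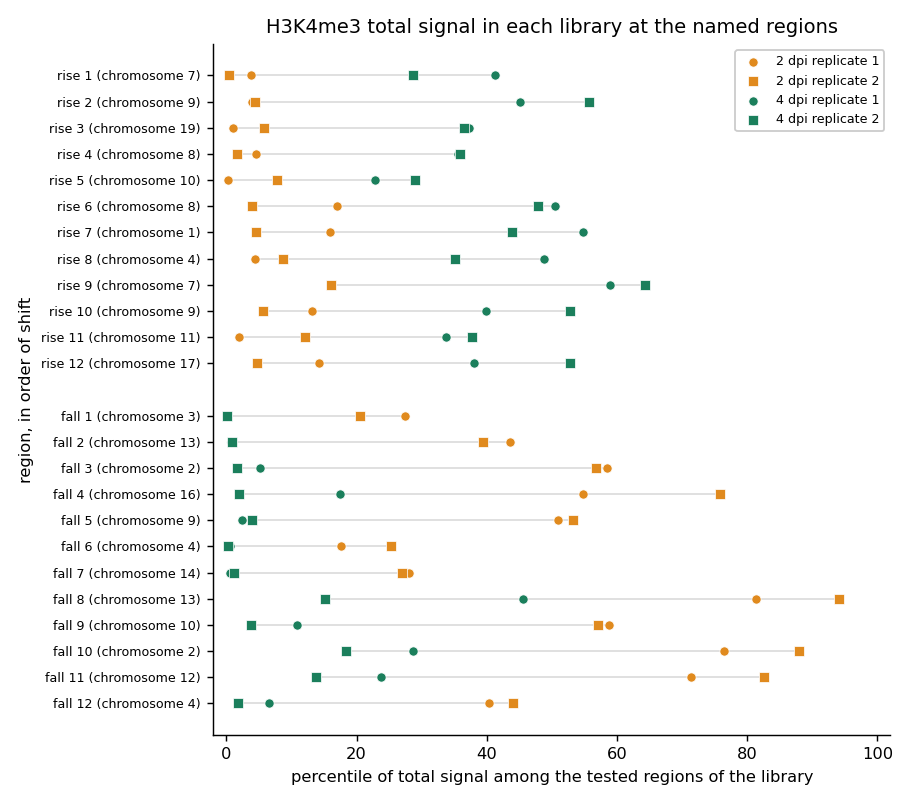
Percentile of H3K4me3 total signal (x axis, 0 to 100, among the 13298 tested regions of a library) at the 12 rises and 12 falls of largest shift (y axis, in order of shift), with 1 point per library. Orange points are 2 dpi and green points 4 dpi, circles replicate 1 and squares replicate 2. In each row the green points lie on one side of the orange points, at 22.9 to 64.3 for the rises and 0.0451 to 45.6 for the falls.

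Among strong regions, changes were smaller in score but still passed. The following were picked after their values were seen, as the strongest regions past the threshold in both total and maximum signal. The strongest rise, chr6:47713987-47731405, was called over 13.2 and 9.84 kb at 2 dpi and 17.4 and 13.3 kb at 4 dpi and stood at percentiles 99.81 and 99.83 against 99.94 and 99.92. Its maximum signal moved more, from percentiles 95.2 and 95.8 to 99.62 and 99.26 (shift 0.85 ± 0.18, limma adjusted p = 0.0216). At chr12:113386167-113395014 the maximum rose from 93.5 and 95.5 to 99.71 and 99.77 (1.19 ± 0.17, adjusted p = 0.00332), which placed it among the tallest regions of both 4 dpi libraries. The strongest fall was chr12:95656978-95666665, where total signal went from percentiles 99.80 and 99.68 to 98.3 and 98.1 (-0.70 ± 0.08, adjusted p = 0.00033) at a width of 8.44 to 9.35 kb in all 4 libraries. A single other tested region lay within 500 kb, which is the wide fall on chromosome 12 described above. At chr2:177661535-177669206 both height and breadth were lower at 4 dpi: the maximum went from 99.39 and 99.40 to 95.6 and 91.1, and the width from 7.64 and 7.48 kb to 4.91 and 4.32 kb.

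Height moved with total signal, but fewer regions passed. By maximum signal 198 regions rose (1.49%) and 165 fell (1.24%). Of these 363 calls, 262 were also called in the same direction by total signal (128 rises and 134 falls), which is 72.2% of the calls by height and 12.4% of those by total signal, and no region passed both tests in opposite directions. Both measures come from the same coverage and are not independent. Maximum signal shifted upwards at 92.4% of the rises in total signal and downwards at 97.8% of the falls, against 49.6% and 50.4% of all tested regions. Calls by height changed with the libraries used: 19 regions rose and 2 fell without 2 dpi replicate 2, 54 and 18 without 2 dpi replicate 1, 295 and 253 without 4 dpi replicate 1, and 113 and 188 without 4 dpi replicate 2. Of the 198 rises and 165 falls, 14 and 2, 31 and 16, 131 and 127, and 80 and 96 were among these calls, in the same order. None passed with the plain variance, and 207 rose and 535 fell on the log2 scale. With total signal divided by called width, which leaves the mean height of a block, 0 regions rose and 5 fell, with 2118 at an unadjusted p under 0.05.

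Called width tended to be greater at 4 dpi, unevenly between the libraries. No region passed the limma test on log2 width in either direction (0%, smallest adjusted p = 0.228, 1181 at an unadjusted p under 0.05), although 77.5% of regions were wider at 4 dpi on average. Non-overlapping widths were seen at 34.1% of regions with the greater width at 4 dpi and at 3.74% with the greater width at 2 dpi. Most of this leaned on 1 library: the median called width of the tested regions was 2103 and 2273 bp at 2 dpi, 2905 bp in 4 dpi replicate 1 and 2252 bp in 4 dpi replicate 2, and without 4 dpi replicate 1 the share of wider regions was 53.6%. With widths centred on the median of each library it was 42.9%.

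Beside that common drift, rises leaned wider than the rest and falls narrower. The median log2 change in width was 0.42 at the rises, 0.19 at regions that did not pass and -0.07 at the falls. Without 4 dpi replicate 1 these medians were 0.29, 0.03 and -0.22, and without 4 dpi replicate 2 they were 0.57, 0.36 and 0.09, with 67.8% of the falls wider at 4 dpi. The order of the 3 classes was kept, whereas the direction at the falls turned with that library. Non-overlapping widths with the greater at 4 dpi were seen at 66.1% of the rises and 7.83% of the falls, and the reverse at 0.29% and 16.5%. Width enters total signal, which chose these classes, so the figures are a description of them. Both edges took part: at the rises the left edge lay a median of 312 bp and the right edge 295 bp further out at 4 dpi, at the other regions 127 and 126 bp, and at the falls 26.5 and 28 bp further in. Blocks called as several peaks at 2 dpi were often single at 4 dpi. In all, 319 regions (2.4% of those tested) held more than 1 peak in both 2 dpi libraries and a single peak in both 4 dpi libraries, and 9 showed the reverse. Of the 319, 13.8% rose and 5.02% fell in total signal, against 7.78% and 8.07% of all tested regions. The number of regions called as several peaks was uneven within time points too, with 1442 and 955 in the 2 dpi libraries and 191 and 661 in those of 4 dpi.

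**Figure D2:**
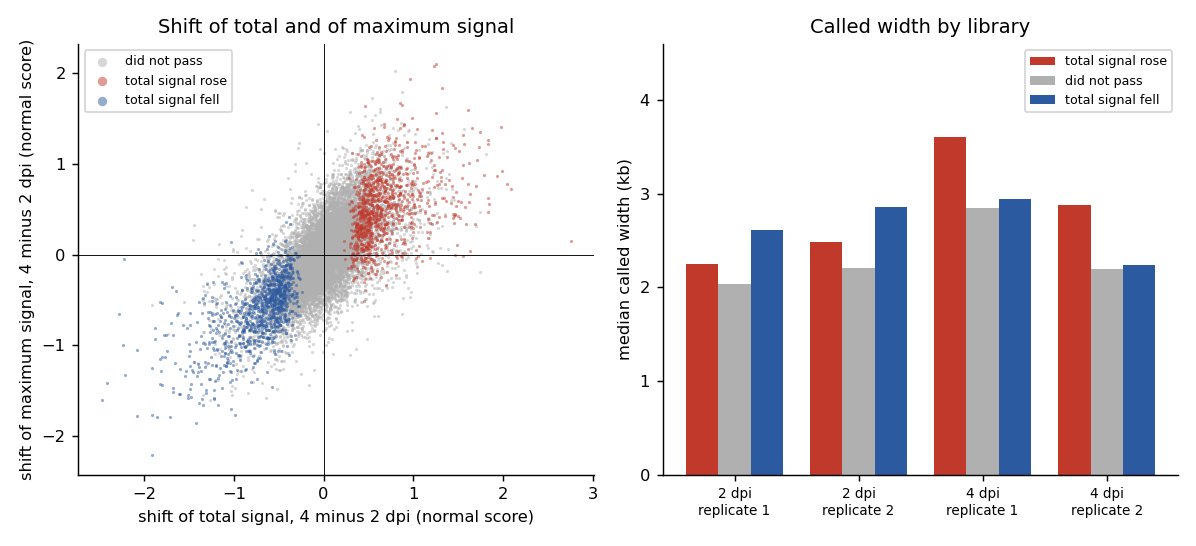
Left, shift of total signal (x axis) against shift of maximum signal (y axis), 4 minus 2 dpi, in normal scores, with 1 point per tested region. Right, median called width in kb of the regions of each class in each library, with bars from 0. The shifts lie along the diagonal, and the bars of 4 dpi replicate 1 are the tallest of each class, with 3607 bp for the rises and 2946 bp for the falls.

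Calls were rare among the weakest regions and frequent among the strongest. Among regions whose mean percentile of total signal over the 4 libraries was under 10, 0.324% rose and 0.648% fell. Among those from 90 to 100, 12.8% rose and 12.5% fell. The mean holds both time points, so a weak region that moved far leaves the lowest class by construction. Precision differed too: the SE of the shift was, for example, 0.06 at chr6:47713987-47731405, the strongest rise, and 0.49 at chr3:68463565-68465419. The part of each in these shares was not tested. By width, 4.78% rose and 5.24% fell among regions of 1 to 2 kb, 15.2% and 15.6% among those of 5 to 10 kb, and 21.8% and 14.5% among the 55 regions above 10 kb. Blocks wider than the common promoter block were therefore called more often in both directions. The narrowest class differed: of 123 regions up to 1 kb wide, 0.813% rose and 22% fell, with a median shift of -0.38.

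Rises and falls were not spread evenly over the genome. Regions were grouped by the number of other tested regions within 500 kb, a measure of how crowded with H3K4me3 blocks a neighbourhood is. In the 985 most isolated regions, with 0 to 2 neighbours, 2.94% rose and 19.2% fell. In the 1174 most crowded, with 21 or more, 16.4% rose and 3.15% fell. The shares changed steadily in between, and the median shift went from -0.22 to 0.19 for total signal and from -0.18 to 0.15 for maximum signal. The Spearman correlation of the shift with the number of neighbours was 0.304 for total signal, 0.224 for maximum signal and 0.198 for width, over 13298 regions that share their libraries. It was 0.247 to 0.327 for total signal when each library in turn was left out. The difference between the replicates of a time point also moved with crowding, though less, with correlations of 0.0801 at 2 dpi and -0.102 at 4 dpi. Base composition and number of genes also go with crowding and could not be read per region in the build of the files, and their part was not tested. When the dependence on crowding was removed from each library's scores, an alternative chosen after seeing the data, 849 regions rose and 878 fell, among them 680 of the 1035 rises and 739 of the 1073 falls.

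**Figure D3:**
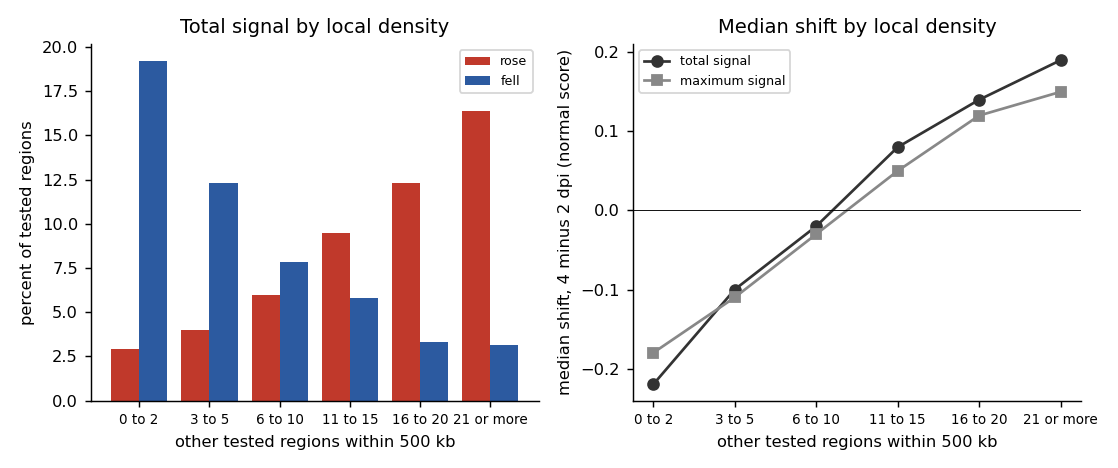
Left, percent of tested regions whose H3K4me3 total signal rose (red) or fell (blue) by the number of other tested regions within 500 kb (x axis). Right, median shift of total and maximum signal, 4 minus 2 dpi, in normal scores, for the same classes. Falls go from 19.2% to 3.15% and rises from 2.94% to 16.4% from the most isolated to the most crowded class.

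Chromosomes differed as well. On chromosome 11, 16.5% of 911 tested regions rose and 3.62% fell (median shift 0.19), and on chromosome 19, 13.4% of 424 rose and 2.83% fell (0.14). Chromosome 13 was the reverse, with 1.96% of 664 rising and 16.3% falling (-0.13). On the X chromosome the median shift was -0.11, with 2.51% of 358 regions rising and 5.31% falling. Chromosomes 11 and 19 had the highest median shifts when any 1 of the 4 libraries was left out, and chromosome 13 was among the lowest pair each time. Over the 19 autosomes and X, the median shift had a Spearman correlation of 0.728 with the GC content of the chromosome, read from the older build GRCm38, and of 0.493 with the number of tested regions per Mb. For the other marks the correlation with GC content was 0.702 for H3K27me3, 0.183 for H3K18la and -0.4 for H3K27ac. These are descriptions over 20 chromosomes. After removal of the dependence on crowding, 11% of regions rose and 3.4% fell on chromosome 11. Chromosome 19, with 10.4% and 2.83%, and chromosome 12, with 10% and 3.67%, were close to it. On chromosome 13, 3.61% rose and 14.9% fell, still the highest share of falls among the autosomes and X.

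**Figure D4:**
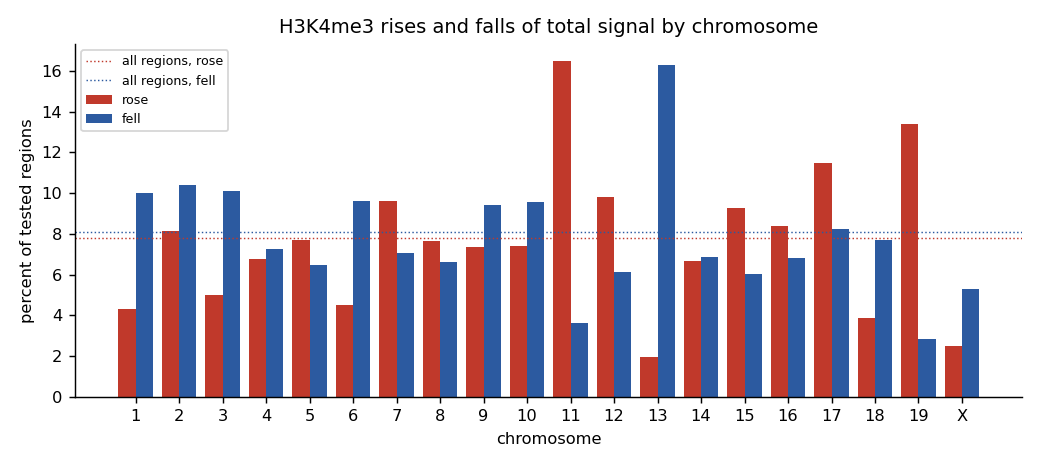
Percent of tested H3K4me3 regions (y axis) whose total signal rose (red bars) or fell (blue bars) from 2 to 4 dpi on each autosome and X (x axis; Y, with 10 tested regions, is not drawn), with dotted lines at the shares over all tested regions (7.78% and 8.07%). Of those drawn, chromosomes 11 and 19 have the highest share of rises and chromosome 13 the highest share of falls.

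Of the 108 falls on chromosome 13, some were close together. Between 67 and 68 Mb, 17 of 29 tested regions fell and 0 rose, and between 62 and 63 Mb, 8 of 10 fell. On chromosome 2, 11 of 16 regions between 175 and 176 Mb fell. The richest windows of rises held fewer of their regions, with 11 of 25 between 34 and 35 Mb of chromosome 17 and 10 of 25 between 5 and 6 Mb of chromosome 19. Of the falls, 35.7% stood next to another fall with no unchanged region between them, and of the rises 23.2% did so next to a rise. Over all tested regions 8.07% fell and 7.78% rose. Calls scattered without order would also give such neighbours, at a share that was not worked out here. The longest unbroken runs of falls had 6 regions, of which there were 4, and the longest run of rises had 5.

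The 4 long runs of falls differed in level. At chr17:17170206-17516510 all 6 regions were strong, at percentiles 92.6 to 97.2 in the 2 dpi libraries and 80.9 to 92.2 in the 4 dpi libraries (shifts of -0.40 to -0.57). On chromosome 13, the run at chr13:62613181-62909277 lay at 74.1 to 96.7 and then at 51.7 to 92.3, and that at chr13:67784350-67929676 at 71.1 to 93.2 and then at 46.9 to 83.8. Both thus kept a clear block of the mark at each region while sinking in rank together. The run at chr2:175660260-176116992 was weaker and fell further, from 31.3 to 72.6 down to 5.43 to 52.6, with shifts of -0.51 to -0.96. The run of 5 rises, at chr12:55125395-55279149, spanned 154 kb, with shifts of 0.51 to 1.40. Neighbours also resembled each other without regard to calls. Shifts had the same sign in 63% of 929 consecutive pairs 1 to 5 kb apart, in 60.7% at 20 to 50 kb and in 55.1% beyond 500 kb, with Pearson correlations of 0.341, 0.223 and 0.0206 across pairs.

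Regions present on one day only were weak. A total of 1026 regions (5.28% of all 19426) had a peak in both 4 dpi libraries and in neither of 2 dpi, here called gained, and 250 (1.29%) had the reverse, called lost. Of the regions called in a single library, 1452 came from 4 dpi replicate 1, the library with the widest peaks, against 168 to 368 from each of the others. Without 4 dpi replicate 1 there were 1298 gained and 901 lost regions, under a looser rule in which a single list stood for 4 dpi. With lists cut to equal length by total signal, 871 were gained and 395 lost. The median percentile within the list was 15.4 for gained and 12.3 for lost regions, against 58.1 for regions in all 4 libraries. Gained regions lay in more crowded neighbourhoods, with a median of 11 tested regions within 500 kb, against 6 for lost regions.

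The strongest gained region, chr8:124340400-124350559, stood at percentiles 67.3 and 60.9 of the 4 dpi lists and was called over 10.2 and 7.28 kb. H3K27ac and H3K27me3 peaks overlapped it on both days. The third in order, chr15:81612428-81615004, stood at 53.2 and 50.2, lay 62.9 kb from the nearest tested region and had H3K27ac on both days. The other 3 of the leading 5 lay on chromosomes 4, 11 and 18 at percentiles 46.7 to 56. H3K18la was at 16% of all 1026 gained regions at 2 dpi and at 18.1% at 4 dpi. It was at 54.4% and 41.6% of the 250 lost regions, and in both libraries of the day at 38.9% and 37.3% of all tested regions. None of the leading 5 gained regions had it in both libraries of either day. Among lost regions, the first and the third were neighbours on chromosome 7, chr7:143983255-143989908 and chr7:143991435-143996265, at percentiles 50.9 and 43.2 and at 49.8 and 38.9 of the 2 dpi lists. Both overlapped H3K27me3 peaks of both libraries on each day, and neither overlapped H3K27ac peaks of both libraries on either day. The second, chr13:115345469-115350255, at 37.1 and 55.2, overlapped H3K18la in both libraries of 2 dpi and not in both of 4 dpi. The other 2 lay at chr15:75004507-75007733 and chr11:26284747-26287493.

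H3K18la was called more often at falls than at rises. It is a lactylation of histone H3 that is found at active promoters and enhancers. It was called in all 4 of its libraries at 55.4% of the H3K4me3 falls, at 30.5% of regions that did not pass and at 22% of the rises, while 39.1% of the rises and 14.4% of the falls had it in no library. Among regions that had it, its own shift was downwards at 73.1% of the 594 falls (median -0.22) and upwards at 73.2% of the 228 rises (0.29), against a median of 0.03 elsewhere. Over the 4233 regions with both marks the Spearman correlation of the shifts was 0.282. Within each class of crowding the falls had H3K18la more often than regions that did not pass, for example 61.7% against 27.4% at 16 to 20 neighbours and 38.1% against 28.3% at 0 to 2. The rises had it less often than regions that did not pass at 6 or more neighbours, but not in the more isolated classes: the share was 41.4% of 29 rises at 0 to 2 neighbours, above that of the falls, and 35.6% of 87 rises against 32.2% at 3 to 5. When each H3K4me3 library was left out in turn, H3K18la was present at 48.3% to 64.3% of the falls and 15.5% to 31.4% of the rises. Few H3K18la regions passed their own test, with 4 of 9325 rising (0.0429%) and 7 falling (0.0751%).

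H3K27ac, the acetylation found at active promoters and enhancers, was common at all classes, in all 4 of its libraries at 84.7% of the rises, 81.9% of the falls and 76.9% of the rest. On ranks among the 13494 H3K27ac regions called in all 4 of its libraries, its shift leaned downwards in each class. The medians were -0.22 at the rises, -0.09 at the falls and -0.13 at the rest. On this scale it did not follow H3K4me3 (Spearman correlation -0.114 over 10360 regions). The study reports positive pairwise correlations among changes of H3K4me3, H3K27ac and H3K18la at promoters of differentially expressed genes. Those come from fragment counts, which peak lists do not hold, at promoters that could not be picked out here without gene names. What makes H3K27ac differ in sign here was not tested. The Spearman correlation of the shift of each mark with the number of H3K4me3 regions within 500 kb was -0.153 for H3K27ac, 0.0471 for H3K18la and 0.303 for H3K27me3, the last close to the 0.304 of H3K4me3. H3K27me3, the repressive mark set by Polycomb complexes, was in all 4 of its libraries at 7.92% of the rises, 14.9% of the falls and 10.6% of all tested regions. It was in no library at 89.8%, 80.7% and 85.7%. Where it was called in all 4, its shifts had a median of -0.06 at the rises and -0.03 at the falls. The gap in its share changed with crowding. It was called in all 4 at 13.8% of rises against 25.4% of falls at 0 to 2 neighbours. The shares were 5.84% against 7.14% at 11 to 15 neighbours, and 8.81% against 5.41% at 21 or more. Of 13494 H3K27ac regions 24 rose (0.178%) and 1 fell (0.00741%), and of 7515 H3K27me3 regions 67 rose (0.892%) and 4 fell (0.0532%), by limma at an adjusted p under 0.05. The study states that the marks were profiled in shared samples, and the labels do not say which libraries belong together, so the libraries of different marks, H3K18la and H3K4me3 included, are not independent. Different shares of cell states in the sorted population and a different level of the mark in each cell cannot be told apart in bulk material.

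**Figure D5:**
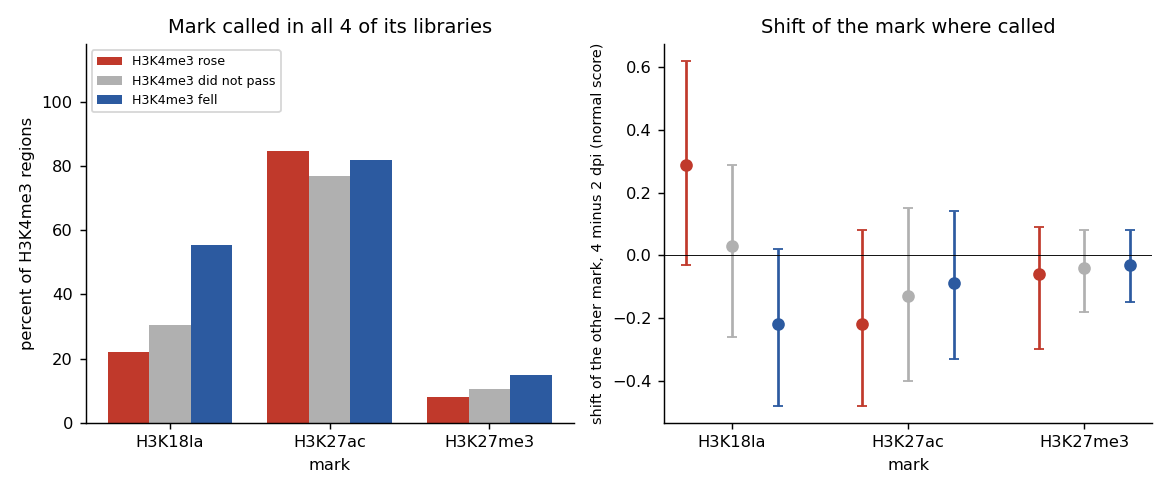
Left, percent of H3K4me3 regions (y axis, bars from 0) that overlap a region of another mark called in all 4 libraries of that mark, for regions whose H3K4me3 total signal rose, did not pass or fell. Right, median shift of the other mark at these regions, 4 minus 2 dpi, in normal scores, with whiskers from the lower to the upper quartile over regions. H3K18la is at 55.4% of the falls and 22% of the rises, and its median shift is -0.22 and 0.29.

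A few regions passed for 2 marks at once. H3K4me3 and H3K27ac both rose at 5 regions and both fell at 1, and at 1 region H3K27ac rose while H3K4me3 fell. With both marks called in all 4 of their libraries, H3K27ac thus rose at 5 of 877 H3K4me3 rises and 1 of 879 falls. It also rose at 4 of 8604 regions where H3K4me3 did not pass. Over all 10360 such regions it rose at 10 and fell at 1. At chr4:136608883-136626882, a block called over 10.6 to 18 kb, H3K4me3 total signal rose from percentiles 93.5 and 95.6 to 99.79 and 99.56 (limma adjusted p = 6.78e-05) and H3K27ac from 85.7 and 79.7 to 96.7 and 98.1 of its own regions (1.00, adjusted p = 0.0381). H3K18la had a shift of 1.70 there, which missed the threshold (adjusted p = 0.069). At chr13:13558196-13570914 H3K4me3 (0.43 ± 0.09), H3K27ac (0.73, adjusted p = 0.0289) and H3K18la (0.56, adjusted p = 0.048) all rose, from percentiles of 96.2 and 97.5 in H3K4me3 at 2 dpi. A large change in acetylation was seen at chr10:94190893-94195845, where H3K27ac went from percentiles 6.81 and 2.68 to 75.8 and 70.4 and H3K4me3 from 15.2 and 31.2 to 64.2 and 60. A further region where both rose was chr13:12655446-12667337, which went from percentiles 97.9 and 98.2 to 99.46 and 99.50 in H3K4me3.

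With H3K18la, both marks rose at 1 region, the second of those above, and both fell at 1. Over the 4233 regions with both marks, H3K18la rose at 3 and fell at 1. H3K18la and H3K4me3 both fell at chr12:95656978-95666665, the strongest fall given above, with H3K18la going from percentiles 95.2 and 94.1 to 59.9 and 67.1 (shift -1.27, limma adjusted p = 0.0214). Its H3K27ac shift was -0.06. H3K27ac and H3K4me3 both fell at chr19:6346206-6350898, from 99.38 and 99.50 to 96.2 and 97.6 for the acetylation and from 70.4 and 78.9 to 47 and 52.7 for H3K4me3. The repressive mark moved against H3K4me3 at 2 places and with it at 2 others. Over the 1413 regions with both marks, H3K27me3 rose at 13 and fell at 3. Of these, 10 and 2 were regions where H3K4me3 did not pass. At chr16:95254913-95260746 H3K27me3 rose from percentiles 53 and 44 to 82.5 and 83.3 while H3K4me3 fell from 81.1 and 63 to 39.8 and 40.7 (-0.85 ± 0.17, adjusted p = 0.00832), and the same pattern was seen at chr8:95710244-95712292. Both rose at chr9:61275031-61284253, and both fell at chr9:91241945-91247874, which had no other tested region within 500 kb.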

How the data were processed

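CUT&Tag was done on macrophages sorted from ischemic calf muscle, with 2 libraries per mark at 2 and at 4 dpi. The submitters' processing notes name Trim Galore 0.6.6, Bowtie2 2.4.4, SAMtools 1.13, bedtools 2.30 and SEACR 1.3, with which the authors called peaks per library (threshold 0.01). The deposited signal values are whole-number sums and maxima of coverage per peak, not scaled between libraries. Depth is unknown, so no counting interval is given. Peaks overlapping blacklisted regions were removed according to the study's methods. In each deposited list the peak of highest maximum lay at chromosome 2 position 98496582 or 98496583.

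Coordinates are GRCm39, as the labels state. The study's methods name mm10 for the alignment, but 19 or 20 H3K4me3 peaks per library lie past the last base of their chromosome in GRCm38. Only a GRCm38 annotation was given, so gene names, gene lists, cell type markers, shares at promoters and sequences were not used here.

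Peaks on 21 chromosomes were merged per mark at 1 bp overlap. For regions called in all 4 libraries, normal scores of the ranks of summed total signal and of the highest maximum signal, and log2 of the called width, were fitted with limma 3.58.1 (trended, robust variance) in R 4.3.3, and p-values were adjusted by the Benjamini-Hochberg method at 0.05. Another mark was read at an H3K4me3 region through the strongest overlapping region of that mark. The fits were run on simulated scores with known shifts and the same independent spread for all regions and libraries. That setting has no trend of variance with signal and no drift of a library. It therefore does not test how far the calls depend on these. Named regions were the 12 rises and 12 falls of largest shift among regions past the threshold in both total and maximum signal, the 5 gained and 5 lost regions of highest mean percentile, and up to 3 regions per mark and direction where another mark passed too, by smallest H3K4me3 p. No region passed in width. Members, rules and alternatives were chosen with earlier results of these data known. Replicate numbers mark different mice at the 2 time points, and deviations of libraries with the same number had a correlation of -0.00265. Summaries were made in Python 3.11.15 with pandas 2.3.3, numpy 2.4.6 and scipy 1.17.1, and figures with matplotlib 3.10.9.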

Additional observations from a re-analysis of the deposited data

Results flagged for a closer look

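Peaks outside the chromosomes compared, on unplaced contigs and the mitochondrial genome, held signal that no comparison used. They took 2.12% and 1.94% of the summed total signal in the 2 dpi libraries and 1.23% and 1.75% in the 4 dpi libraries, in 35, 32, 21 and 25 peaks, of which 1 per library was mitochondrial. The groups did not overlap, but 2 libraries against 2 cannot give an exact permutation p below 0.33.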

How the results depend on the processing

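For total signal (1035 rose, 1073 fell), lists of equal length, the stricter threshold, merging at 500 bp, the replicate block (1202 and 1199) and removal of local density stayed within 1.5 times of both counts. The plain variance gave 0 and 0, mean signal per called base 0 and 5, and log2 values 1882 falls. Leaving out 1 library gave 239 to 1476 rises and 474 to 1280 falls. For maximum signal (198 and 165), the plain variance gave 0 and 0, log2 values 535 falls, and leaving out 1 library 19 to 295 rises and 2 to 253 falls. For width (0 and 0), the replicate block gave 196 wider and 9 narrower, and leaving out 1 library 0 to 216 and 0 to 4. The numbers pair no mice, and the block is a hint only. Gained regions numbered 1298 to 2502 and lost regions 301 to 901 without 1 library, and 395 were lost with lists of equal length. Leaving out 1 library loosens the rule, since a single list then stands for its day, so higher counts than with all 4 are all but fixed. The difference in the number of peaks was -341 to 1626 without 1 library. The cause of the other changes was not tested. Across 12 alternatives, the 24 regions of largest shift kept their direction in all 260 values that could be computed, and 68 of these missed the threshold, among them all 24 with the plain variance and all 24 with mean signal per called base. Their adjusted p ranged up to 0.781. In several settings the direction could not turn: the replicate block and the plain variance leave the shift as it is. Nor could leaving out 1 library turn it, because the time points did not overlap at any of the 24. Shares at promoters and the gene list alternative were not run. With 2 libraries per group and unknown depth, absence of a peak cannot be told apart from a peak under the caller's threshold.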
